A study of Homo sapiens with 2 samples.

Results

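The 34 genes described here encode effectors and transcription factors of the interferon response: the *IFIT*, *MX*, and *OAS* families, *STAT2*, *IRF1*, *IRF7*, and *IRF9*, *IFI35*, *IFI44*, *IFI44L*, and *IFI16*, and further antiviral and signaling genes. They were taken by gene name from the 33538 genes listed in both UMI count tables, and all 34 were found, each under a single Ensembl identifier. HCT116, an established human colon cancer cell line, was either mock-treated or given 0.5 µM of decitabine (DAC), a cytidine analog that traps DNA methyltransferases so that dividing cells lose DNA methylation. DAC was given on day 1 and again on day 3, fresh medium followed on day 5, and single cells were captured on day 7, with 1 library per condition. In each library, transcripts were counted near their poly(A) tails by unique molecular identifiers (UMIs), which count PCR copies of a molecule once. Cells of a single library do not replicate a condition, so the conditions are described without a test, and all intervals are exact 95% intervals that cover counting error only.

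Interferons secreted by a cell bind receptors whose JAK kinases phosphorylate STAT proteins. STAT2 and IRF9 are subunits of ISGF3, a complex that binds the interferon-stimulated response element (ISRE) in promoters of interferon-stimulated genes. The products of those genes bind viral RNA, degrade it, block its translation, or hold back budding virions, and some of them, such as *IRF7* and *STAT2*, feed back on the pathway itself. In epithelial tumor cells, including colon cancer cells, DNA demethylating drugs are known to raise interferon-stimulated genes.

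To show what the promoters of these genes have in common, RefSeq promoter windows (GRCh38.p14, 250 bases before and 50 bases from each annotated start) were searched for an ISRE-like sequence, TTTC followed 2 bases later by another TTTC, on both strands (GAAA and GAAA on the other strand), with overlapping matches allowed. Windows were found for 28 of the 34 genes, and 18 of the 28 (64.3%) had at least 1 match, against 4.38% of 27305 genes with a window. The sites below are from genes of different families and include genes with both large and small changes after DAC treatment. Each is printed 5′ to 3′ on the strand of its gene, with the matches in capitals.
*IFIT1*, chr10:89392504-89392533, plus strand: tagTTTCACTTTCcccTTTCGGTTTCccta
*IFIT5*, chr10:89414547-89414576, plus strand: agTTTCGATTTCttaagTTTCAGTTTCtga
*MX1*, chr21:41420559-41420588, plus strand: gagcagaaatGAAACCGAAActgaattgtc
*OAS3*, chr12:112938321-112938350, plus strand: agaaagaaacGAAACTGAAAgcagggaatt
*IFI44*, chr1:78649761-78649790, plus strand: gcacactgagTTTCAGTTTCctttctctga
*BST2*, chr19:17405738-17405767, minus strand: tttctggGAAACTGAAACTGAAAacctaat
*ISG20*, chr15:88638937-88638966, plus strand: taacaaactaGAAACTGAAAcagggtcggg
*SAMD9*, chr7:93118096-93118125, minus strand: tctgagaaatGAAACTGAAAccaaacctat
*LGALS3BP*, chr17:78979962-78979991, minus strand: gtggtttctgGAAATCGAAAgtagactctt
*DTX3L*, chr3:122564322-122564351, plus strand: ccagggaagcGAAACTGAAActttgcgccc

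The printed sites of *IFIT1*, *IFIT5*, and *BST2* hold 2 matches each, which overlap in *BST2*. The *DTX3L* match lies at the start of that gene and is also the match of *PARP9*, which is read from the opposite strand. *ISG20*, whose change after DAC treatment was the smallest of all 34, has the same 10 capital letters as *OAS3*, *SAMD9*, and *DTX3L*. The median log2 DAC-to-mock ratio, defined in the next paragraphs, was 2.83 over the 18 genes with a match and 1.90 over the 10 without. The gene with the highest ratio, *XAF1*, had no match in either of its windows. The 40 windows of the 28 genes held a median of 7 CpG dinucleotides, with a range from 0 to 45, against 14 over all windows.

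The libraries held 49911689 (mock-treated, 1783 cells) and 59046165 UMIs (DAC-treated, 1751 cells), with medians of 27899 and 35340 UMIs per cell. Levels are given as UMIs summed over a library and scaled to the total of that library (CPM), and the ratio of the DAC-treated to the mock-treated CPM is called the ratio. Pairs of counts are written as mock-treated against DAC-treated. For shares of cells and for comparisons between cells, 10000 UMIs were drawn at random from each cell, which kept 1388 mock-treated and 1293 DAC-treated cells and left out shallower ones. The 34 genes together were at 387.6 CPM in the kept and 253.5 CPM in the other mock-treated cells, and at 957.9 and 753.9 CPM in DAC-treated cells. The cells left out had a median of 62.0% mitochondrial UMIs in the mock-treated and 13.3% in the DAC-treated library, and 12 barcodes occurred in both libraries. Of 10 epithelial marker genes all were detected in both, led by *KRT18*, *KRT8*, and *KRT19* (ratios 2.11, 1.73, and 1.07), while *EPCAM*, *CLDN7*, and *CLDN4* had ratios of 0.636, 0.472, and 0.314. Of 9 immune marker genes, which hold *PTPRC*, the defining gene of blood cells, 4 were at 0 in the mock-treated and none in the DAC-treated library, and their sum was 22 against 680 UMIs, mainly *CD3D* (1 against 292) and *TYROBP* (0 against 273), with *PTPRC* at 0 against 16. The stromal and endothelial list had 549 against 1291 UMIs, mainly *COL1A1*, with 5 of its 9 genes at 0 in mock-treated cells only. Over DAC-treated cells, *CD3D* and *TYROBP* both had r of 0.07 with the sum of the 34 genes, and the part of other cell types in the values below was not tested. Since the tables hold a single cell line, no cell type that lacks these genes gives a background of free RNA, and the mock-treated library is the only comparison.

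After DAC treatment, most of these genes were higher. Together they took 19124 UMIs, or 0.0383%, of the mock-treated library and 56322 UMIs, or 0.0954%, of the DAC-treated library. The ratio was 2 or more for 26 of the 34 genes and 0.5 or less for none. Among all 16302 genes with 30 UMIs or more over both libraries, these shares were 21.1% and 7.58%. Of the 34 genes, 33 passed that filter, and 25 of these had a ratio of 2 or more. The exception was *SAMD9L* with 29 UMIs. The median log2 ratio was 3.00 over the 33 genes past the filter, against 0.27 over all genes past it. Ratios of the 34 genes ranged from 1.11 for *ISG20* to 338 for *XAF1*. The interval of the ratio lay above 1 for all 34 genes and above 2 for 24. Intervals were not counted over all genes, so these counts have no background. When libraries were scaled by the median of ratios over all genes in place of their totals, every log2 ratio was lower by 0.24, *IFI35* and *IRF9* came below 2, and *ISG20* changed its direction, to a log2 ratio of −0.09, as it did without cells over 20% mitochondrial UMIs (−0.08). The plot of ratios and shares of cells shows all 34 genes.

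**Figure D1:**
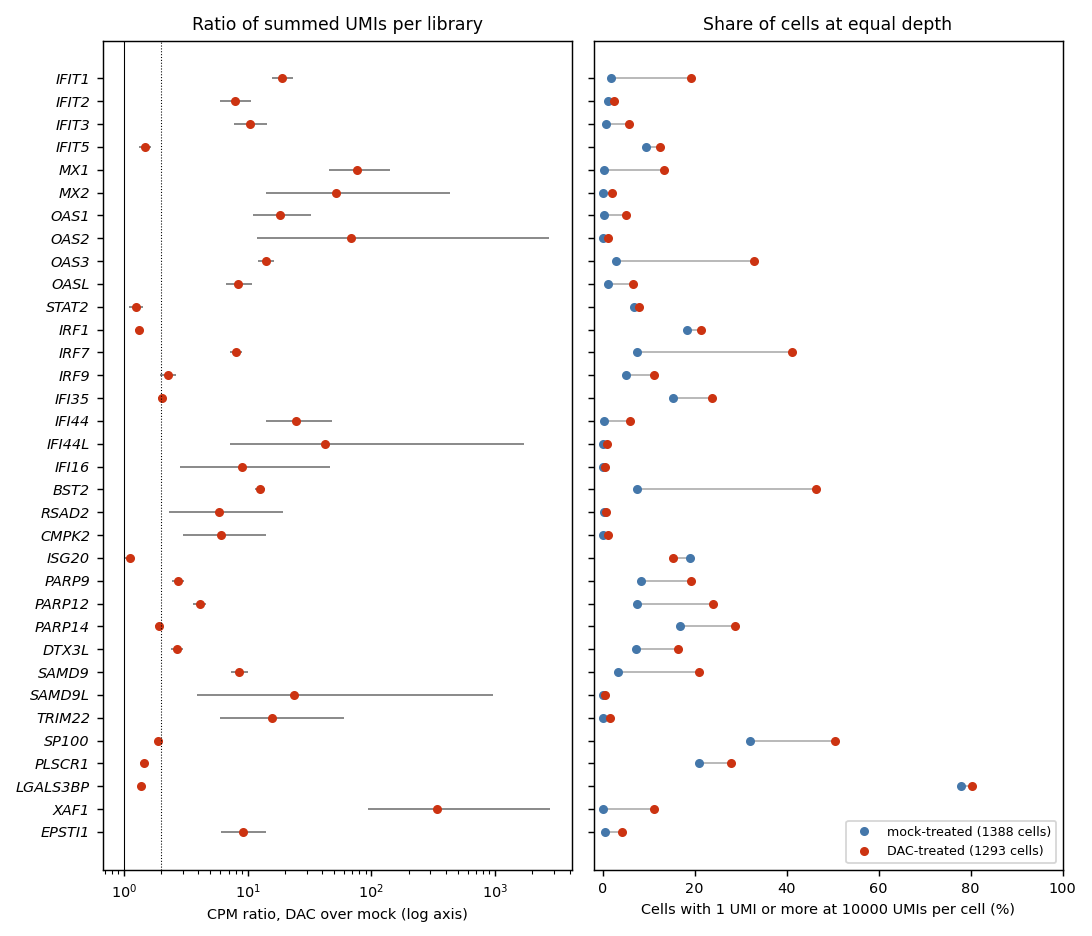
Left, CPM ratio of DAC-treated over mock-treated cells for each of the 34 genes on a log axis, with exact 95% intervals for counting error (lines), a solid line at 1 and a dotted line at 2. Right, percentage of cells with 1 UMI or more at 10000 UMIs per cell. *XAF1*, *MX1*, and *OAS2* lie farthest to the right on the left side, and *BST2*, *IRF7*, and *OAS3* have the widest gaps between conditions on the right side.

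The IFIT proteins bind viral RNA through helical repeats, and their genes lie side by side on chromosome 10 (*IFIT2*, 89283694 to 89309271; *IFIT3*, 89327307 to 89377473; *IFIT1*, 89392546 to 89406487; *IFIT5*, 89414568 to 89421605; hg38, GENCODE release 44). *IFIT1*, whose product binds messenger RNA with an unmethylated cap, had 103 UMIs in mock-treated and 2320 UMIs in DAC-treated cells, a ratio of 19.0 (15.6 to 23.4). *IFIT3*, whose product stabilizes IFIT1 on RNA, went from 47 to 579 UMIs, a ratio of 10.4 (7.73 to 14.3), with 39.2% of its DAC-treated UMIs in the top 10 cells and a log2 ratio of 2.27 in place of 3.38 when CPM was averaged over cells. *IFIT2*, whose product forms complexes with IFIT1 and IFIT3, went from 55 to 516 UMIs, a ratio of 7.93 (5.998 to 10.7). This ratio rested on few cells: 1 DAC-treated cell held 160 of the 516 UMIs, the top 10 cells held 79.3%, and the ratio without the top cell was 5.48. Without cells over 20% mitochondrial UMIs, the log2 ratio of *IFIT2* was 1.73 in place of 2.99. In *IFIT5*, whose product acts alone, 483 mock-treated and 850 DAC-treated UMIs gave a ratio of 1.49 (1.33 to 1.67), and its window holds 3 ISRE-like matches. At equal depth, *IFIT1* was detected in 1.73% of mock-treated and 19.3% (17.1 to 21.5%) of DAC-treated cells, *IFIT3* in 0.793% and 5.80%, *IFIT2* in 1.15% and 2.40%, and *IFIT5* in 9.37% and 12.5%.

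*MX1* and *MX2*, neighbors on chromosome 21 (41361999 to 41470071), encode dynamin-like GTPases that trap viral nucleocapsids. Only 14 *MX1* UMIs were found in mock-treated cells, none of which had more than 2, against 1279 in DAC-treated cells, a ratio of 77.2 (45.9 to 142). *MX2* had 2 UMIs against 122, a ratio of 51.6 whose interval, from 14.0 to 431, reflects the few mock-treated UMIs. *MX1* was detected in 0.360% of mock-treated and 13.4% (11.6 to 15.4%) of DAC-treated cells at equal depth. The highest *MX1* count in a single DAC-treated cell was 38 UMIs at full depth and 8 at equal depth.

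The OAS enzymes sense double-stranded RNA and make oligoadenylates that activate RNase L, and *OAS1*, *OAS3*, and *OAS2* lie next to each other on chromosome 12 (112905856 to 113011723). *OAS3*, the enzyme with the highest affinity for long RNA, had 179 UMIs in mock-treated and 2962 in DAC-treated cells, a ratio of 14.0 (12.0 to 16.4). *OAS1* had 16 against 345 UMIs, a ratio of 18.2 (11.1 to 32.2), and *OAS2* had 1 against 81 UMIs, a ratio of 68.5 (11.9 to 2737). All of the catalytic members of the family were thus higher, with *OAS3* detected in 2.88% of mock-treated and 32.9% (30.3 to 35.5%) of DAC-treated cells at equal depth. *OASL*, whose product lacks the enzyme activity and binds the RNA sensor RIG-I, lies elsewhere on the chromosome. It went from 75 to 746 UMIs, a ratio of 8.41 (6.62 to 10.8), and from 1.22% to 6.65% of cells. The top 10 cells held 46.1% of its DAC-treated UMIs, and without cells with 3 *IFIT2* UMIs or more its log2 ratio was 2.03 in place of 3.07.

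Of the 4 transcription factors, *IRF7*, the factor that drives interferon genes, stood apart. It had 391 UMIs in mock-treated and 3707 in DAC-treated cells, a ratio of 8.01 (7.22 to 8.92), and was detected in 7.35% and 41.1% (38.4 to 43.8%) of cells at equal depth. The DNA-binding subunit of ISGF3, *IRF9*, had 251 against 676 UMIs, a ratio of 2.28 (1.97 to 2.64). *STAT2*, the other ISGF3 subunit on the list, had 350 against 518 UMIs (ratio 1.25), and *IRF1*, a factor induced chiefly by interferon gamma, had 984 against 1537 UMIs (ratio 1.32). The intervals of *STAT2*, from 1.09 to 1.44, and of *IRF1*, from 1.22 to 1.43, did not reach that of *IRF9*.

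The genes with IFI names are unrelated in sequence apart from the pair *IFI44* and *IFI44L*, which lie side by side on chromosome 1. *IFI44* had 12 UMIs in mock-treated and 351 in DAC-treated cells, a ratio of 24.7 (14.0 to 48.3), and *IFI44L* had 1 against 50 UMIs, a ratio of 42.3 (7.25 to 1702). *IFI16*, which encodes a sensor of DNA in the nucleus, had 3 UMIs against 32, a ratio of 9.02 with an interval from 2.82 to 46.0. No mock-treated cell held 3 UMIs or more of *IFI44* or *IFI16*, a level held by 37 (2.11%, 1.49 to 2.90%) and 3 (0.171%, 0.0353 to 0.500%) DAC-treated cells, respectively. *IFI35*, already detected in many mock-treated cells, went from 801 to 1922 UMIs, a ratio of 2.03 (1.87 to 2.21).

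Among the antiviral membrane proteins and enzymes, *BST2*, encoding tetherin, which holds budding virions at the cell surface, showed the widest difference in detection of all 34 genes. It had 468 UMIs in mock-treated and 6909 in DAC-treated cells, a ratio of 12.5 (11.4 to 13.7), and was detected in 7.35% and 46.3% (43.6 to 49.1%) of cells at equal depth. *RSAD2*, encoding viperin, which makes a chain-terminating nucleotide, and its divergent neighbor *CMPK2*, encoding a mitochondrial nucleotide kinase, stayed rare. They had 5 against 35 and 9 against 65 UMIs, ratios of 5.92 (2.31 to 19.3) and 6.10 (3.03 to 13.9), and at equal depth were detected in 0.288% and 0.0720% of mock-treated and 0.696% and 1.24% of DAC-treated cells. At that depth *RSAD2* had 5 against 9 UMIs, a ratio of 1.93, and *CMPK2* had 1 against 16 UMIs. *ISG20*, an exonuclease of single-stranded RNA, had 1108 against 1455 UMIs, a ratio of 1.11 (1.03 to 1.20) that came below 1 under the median-of-ratios scaling. It was detected in 18.9% of mock-treated and 15.2% of DAC-treated cells at equal depth, so the share and the ratio did not point the same way, and no order was read from the share.

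The ADP-ribosylation genes had smaller ratios. *PARP12*, whose product represses translation, had 362 UMIs in mock-treated and 1747 in DAC-treated cells, a ratio of 4.08 (3.64 to 4.58). *PARP9* and *DTX3L*, which share a promoter region and encode partners in a ubiquitin ligase complex, had nearly equal ratios, 2.72 (2.44 to 3.04) from 421 and 1356 UMIs and 2.68 (2.39 to 3.01) from 387 and 1226 UMIs. *PARP14*, on the same chromosome, had 949 against 2153 UMIs and a ratio of 1.92 (1.78 to 2.07). *SAMD9* and *SAMD9L*, neighbors on chromosome 7 whose products restrict poxviruses, differed in level. *SAMD9* had 175 against 1778 UMIs, a ratio of 8.59 (7.35 to 10.1), and *SAMD9L* had 1 against 28, a ratio of 23.7 with an interval from 3.91 to 967.8.

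The remaining genes covered a wide range. *XAF1*, whose product binds the apoptosis inhibitor XIAP, had 2 UMIs, both in the same mock-treated cell, against 800 in DAC-treated cells, a ratio of 338 (93.3 to 2797). At full depth 20.4% (18.6 to 22.4%) of DAC-treated cells had 1 UMI or more of *XAF1*, against 0.0561% of mock-treated cells, and 101 cells (5.77%, 4.72 to 6.96%) had 3 or more. *EPSTI1* had 27 against 291 UMIs, a ratio of 9.11 (6.13 to 14.1), and *TRIM22*, an antiviral ubiquitin ligase, had 4 against 75 UMIs, a ratio of 15.8 (5.94 to 59.7). The genes of this group with the most UMIs in mock-treated cells had ratios below 2. *LGALS3BP*, a secreted binder of galectin, had 8061 against 12975 UMIs (ratio 1.36, 1.32 to 1.40). *SP100*, a component of PML nuclear bodies, had 2125 against 4701 UMIs (ratio 1.87, 1.78 to 1.97), and *PLSCR1*, a phospholipid scramblase, had 1252 against 2135 UMIs (ratio 1.44, 1.34 to 1.55). Without *LGALS3BP* and *BST2*, the genes with the most UMIs in DAC-treated cells, the ratio of the sum of all other members at equal depth was 3.00, against 2.51 with them.

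The next question was whether the increase lay in all DAC-treated cells or in some. At 10000 UMIs per cell, the 34 genes together had a median of 4 UMIs in mock-treated cells, with a highest value of 16, and a median of 7 UMIs in DAC-treated cells, with a highest value of 81. The means were 3.92 (SD 2.46, n = 1388 cells) and 9.86 (SD 9.19, n = 1293 cells), so the ratio of the means, 2.51 (2.44 to 2.60), exceeded that of the medians, 1.75. The lower parts of the distributions overlapped, and 26.8% (24.4 to 29.3%) of DAC-treated cells had no more than the mock-treated median. On the upper side, 333 DAC-treated cells (25.8%, 23.4 to 28.2%) were above 12 UMIs, the mock-treated 99th percentile, and 200 (15.5%, 13.5 to 17.6%) were above the highest mock-treated cell. With another random draw the share above the 99th percentile was 30.5%. The 10% of cells with the most held 30.7% of the UMIs of these genes in DAC-treated and 23.0% in mock-treated cells.

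The number of genes detected in a cell showed the same spread. The median was 3 of the 34 genes per mock-treated and 5 per DAC-treated cell, and the highest values were 10 and 23. At least 10 of the genes were detected in 1 mock-treated cell (0.0720%, up to 0.401%) and in 174 DAC-treated cells (13.5%, 11.6 to 15.4%), and at least 15 in no mock-treated cell (0%, up to 0.265%) and in 29 DAC-treated cells (2.24%, 1.51 to 3.21%).

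**Figure D2:**
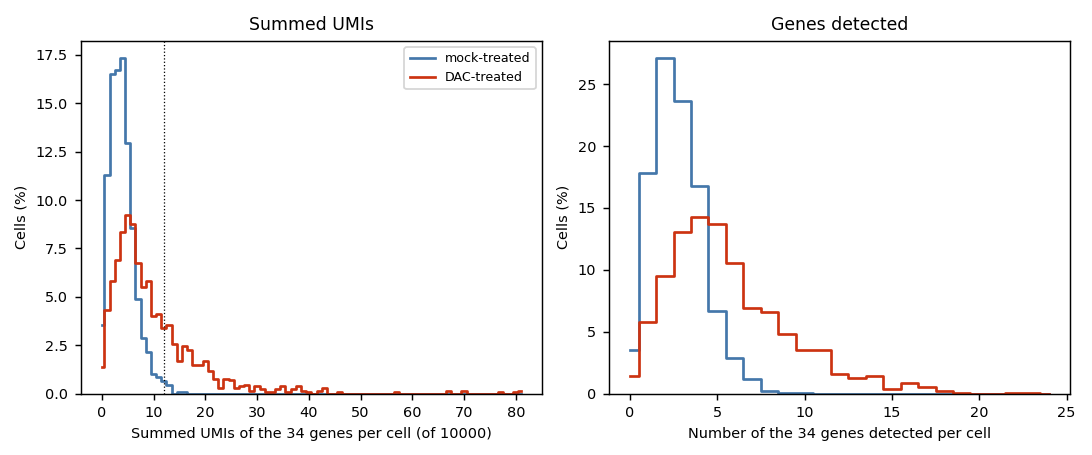
Percentage of cells by the summed UMIs of the 34 genes (left) and by the number of these genes with 1 UMI or more (right), at 10000 UMIs per cell, for 1388 mock-treated (blue) and 1293 DAC-treated cells (red). The dotted line marks 12 UMIs, the mock-treated 99th percentile, and 25.8% of DAC-treated cells lie to its right in a tail that reaches 81 UMIs.

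To see how evenly single genes were spread, the share of cells with a UMI was compared with the share that would be seen if every DAC-treated cell had the same mean. Of the 34 genes, 29 were detected in fewer DAC-treated cells than that. The same count over all genes was not made, so 29 is not read as a trait of these genes. *IFIT1* was detected in 19.3% of cells against 35.2% for an even spread, *BST2* in 46.3% against 68.9%, *OASL* in 6.65% against 13.5%, and *IFIT2* in 2.40% against 9.77%. The gap was narrow for *IRF9* (11.2% against 11.5%), *IFIT5* (12.5% against 13.0%), *STAT2* (7.97% against 8.37%), and *PARP12* (23.9% against 24.9%). *OAS2*, *RSAD2*, *CMPK2*, *SAMD9L*, and *TRIM22*, the genes that did not fall below, had at most 1 UMI in any thinned cell, where uneven spread is not detectable.

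Genes that were uneven between cells tended to be uneven in the same cells. If the 34 genes varied independently, the variance of their sum would equal the sum of their variances. The sum had 3.84 times this variance in DAC-treated cells and 1.30 times in mock-treated cells. Over 1293 DAC-treated cells, the mean Pearson correlation of the 435 pairs formed by 30 genes detected in at least 1% of cells was 0.104, with a lowest r of −0.04 and a highest of 0.73. Of these pairs, 190, or 43.7%, had r of 0.1 or more, against 1.49% of all gene pairs past the same filter. In 1388 mock-treated cells, 20 genes passed, the mean r of their 190 pairs was 0.0199, and 3 pairs (1.58%) had r of 0.1 or more, against 0.739% of all pairs. The correlations are descriptions over cells that share a library and were brought to the same depth, and r is held low by sparse counts, which were sparser in mock-treated cells.

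By Pearson r, the strongest pairs joined *IFIT1*, *IFIT2*, *IFIT3*, and *OASL*, whose highest counts in a thinned cell were 20, 32, 12, and 18. A few cells with many UMIs weigh heavily in r, and no rank correlation is given for single pairs. By cells found together, *IFIT1* and *OAS1* (r of 0.36) had the same excess as *IFIT1* and *OASL*, both 2.96 times the number expected. *IFIT1* and *OASL*, on different chromosomes, had r of 0.73 and were found together in 49 DAC-treated cells, where 16.6 would be expected if they were independent. *IFIT2* and *IFIT3* had r of 0.72 (15 cells against 1.80), *IFIT1* and *IFIT3* had r of 0.67 (40 against 14.4), and *IFIT3* and *OASL* had r of 0.60 (24 against 4.99). Genes that lie side by side had both high and low r: beside these pairs of *IFIT* genes and *IFIT1* and *IFIT2* (0.54), *IFIT1* and *IFIT5* had r of 0.09, *MX1* and *MX2* 0.11, *PARP9* and *DTX3L* 0.15, and *OAS1* and *OAS3* 0.16. *MX1* and *OAS1*, on different chromosomes, had r of 0.37 and were found together in 23 cells, where 8.70 would be expected, and *BST2* and *LGALS3BP* had r of 0.31.

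**Figure D3:**
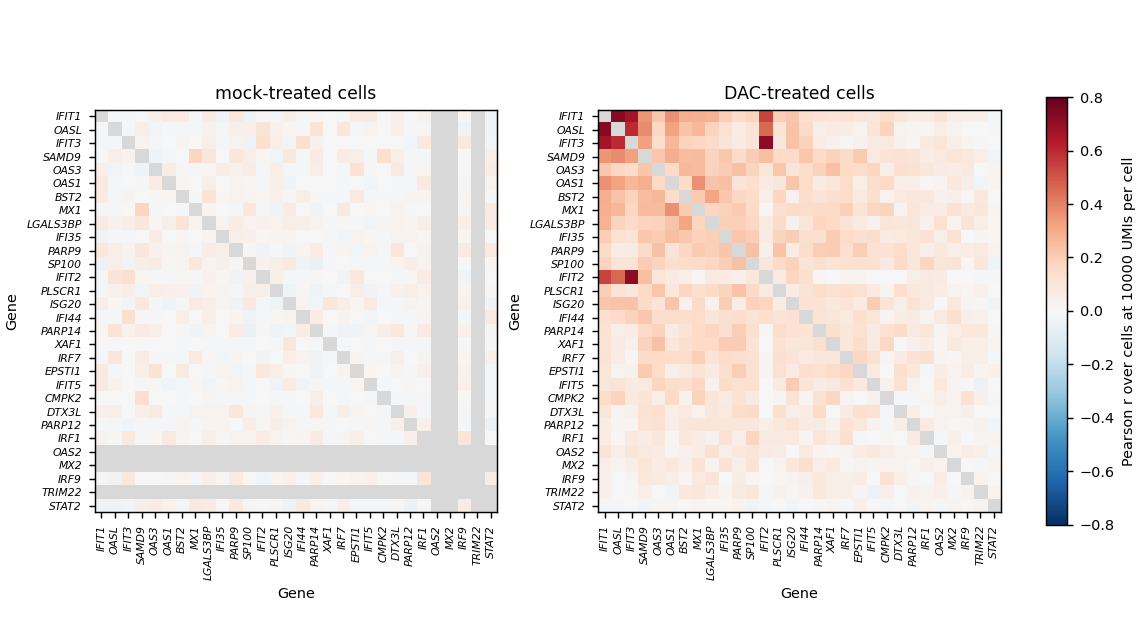
Pearson r between pairs of the 30 genes detected in at least 1% of DAC-treated cells, over cells at 10000 UMIs, in mock-treated (left) and DAC-treated cells (right); the color scale runs from blue (negative) to red (positive), and gray marks the diagonal and the genes that no mock-treated cell had. The mock-treated panel is close to white, and the DAC-treated panel is reddest among *IFIT1*, *OASL*, *IFIT3*, and *IFIT2* and palest for *STAT2*.

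Each gene was next compared with the sum of the other 33 in DAC-treated cells. All 34 genes had r above 0 with this sum, but genes above 0 were not counted outside the list, so this count has no background. The r was 0.61 for *IFIT1*, 0.51 for *OASL* and *IFIT3*, 0.48 for *SAMD9*, 0.40 for *OAS3*, *OAS1*, and *BST2*, and 0.39 for *MX1*. It was lowest for *STAT2* (0.00) and for *TRIM22* and *IRF9* (both 0.09), and was 0.24 for *IRF7*.

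The cells were then divided into 4 groups of nearly equal size by the sum of the other 33 genes, so that the gene in question had no part in the ranking. The mean was at least 2 times higher in the highest than in the lowest group for 32 of the 34 genes. This counts 5 rare genes with no UMI in the lowest group. Among 13677 genes that are not on the list and were ranked by all 34, the share was 10.1%. It was counted more strictly, over genes detected in at least 1% of DAC-treated cells and with 0 UMIs set against 3 counts. Of the 34 genes, 30 pass that filter, among them the exceptions *STAT2* and *IRF1*, and *IFI44L*, *IFI16*, *RSAD2*, and *SAMD9L* do not. *IFIT1* went from 0.0463 UMI per cell in the lowest to 1.33 in the highest group, *OASL* from 0.0216 to 0.477, and *MX1* from 0.0494 to 0.588. Genes with small changes between conditions followed the ranking as well: *LGALS3BP* went from 1.43 to 3.40 UMIs per cell, *ISG20* from 0.142 to 0.443, *PLSCR1* from 0.188 to 0.644, and *IFIT5* from 0.0895 to 0.266. The exceptions were *STAT2*, with 0.0926 and 0.0898 UMI per cell, and *IRF1*, with 0.219 and 0.368. For 15 genes the lowest group held fewer than 10 UMIs, and their ratios between groups are imprecise.

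**Figure D4:**
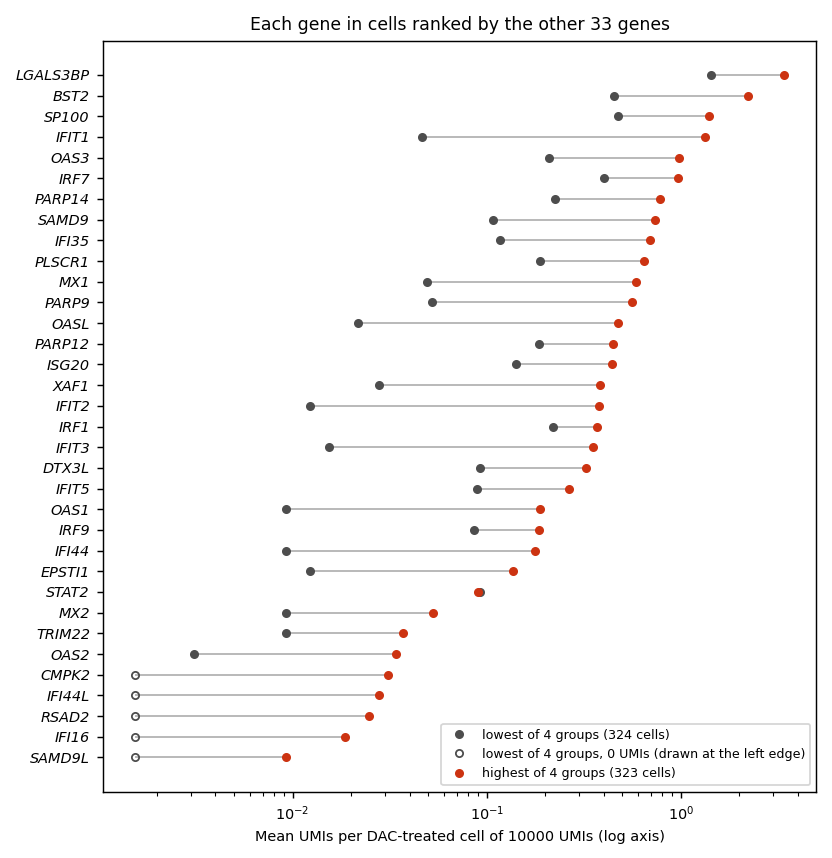
Mean UMIs per DAC-treated cell at 10000 UMIs, on a log axis, in the lowest (gray, 324 cells) and highest of 4 groups (red, 323 cells) of cells ranked by the sum of the other 33 genes; open circles at the left edge stand for 0 UMIs. Nearly all genes are farther right in the highest group, most widely *IFIT1*, *IFIT2*, *IFIT3*, and *OASL*, and the points of *STAT2* coincide.

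Cell cycle, depth, and mitochondrial content differed between the conditions. The mean S-phase marker sum was 5.39 UMIs in mock-treated and 13.3 in DAC-treated cells at equal depth, the mean G2/M sum was 10.7 and 23.7, and the mean mitochondrial share was 20.8% and 25.7%. Within DAC-treated cells, the sum of the 34 genes had Pearson r of −0.05 with the S-phase sum, −0.06 with the G2/M sum, −0.09 with the mitochondrial share, and −0.09 with the UMIs before thinning. In mock-treated cells these values were −0.14, −0.18, −0.08, and −0.07. With the mitochondrial share the sign turned as Spearman correlation, to 0.01 in DAC-treated and 0.12 in mock-treated cells, so no direction was read from it. Among the cells whose S-phase and G2/M UMIs together did not exceed the mock-treated median of 5, 761 mock-treated and 206 DAC-treated cells remained, and the ratio of means of the 34 genes was 2.59 (2.45 to 2.73). This restriction was chosen after the data were seen.

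*IFIT2* was concentrated in so few cells that these were described separately, a choice made after the values were seen. In the DAC-treated library, 19 cells (1.09%, 0.655 to 1.69%) had 3 *IFIT2* UMIs or more, against 2 mock-treated cells, and they held 452 of its 516 UMIs. The counts in these cells ran from 3 to 160, with 10 cells at 10 or more. Their total UMIs ranged from 20544 to 70021, with a median of 44900 against 35164 in the other DAC-treated cells, and their median mitochondrial share was 19.9% against 18.3%. The other 33 genes had no part in the choice of these cells.

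These 19 cells held much of the *OASL*, *IFIT3*, and *IFIT1* transcripts of the library. *OASL* was at 468 CPM in them and 5.96 CPM in the other 1732 DAC-treated cells, and 53.5% of its UMIs lay in them. *IFIT3* was at 327 against 5.16 CPM, with 48.2% of its UMIs, and *IFIT1* at 732 against 29.1 CPM, with 26.9% of its UMIs. Among the genes with smaller differences, *IFI44* was 9.78 times higher in the 19 cells, *ISG20* 8.43 times, *MX1* 7.99 times, *OAS1* 7.95 times, and *SAMD9* 5.92 times. *ISG20* was thus far from even between DAC-treated cells, although its summed level hardly differed between the libraries. Of the transcription factors, *IRF1* was 2.53 times, *STAT2* 1.90 times, and *IRF7* 1.47 times higher, and *IRF9* was at 10.6 against 11.5 CPM. *XAF1* was 2.94 times, *OAS3* 2.36 times, *BST2* 2.25 times, *LGALS3BP* 1.77 times, and *PARP9* 1.60 times higher. When cells with 3 *IFIT2* UMIs or more were left out of both libraries, the log2 ratio of *OASL* between conditions went from 3.07 to 2.03. That of *IFIT3* went from 3.38 to 2.55 and that of *ISG20* from 0.15 to 0.00, and 23 of 33 genes had a ratio of 2 or more. The log2 ratio of *IFIT2* itself went from 2.99 to 0.19, a fall fixed by the choice of the cells.

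**Figure D5:**
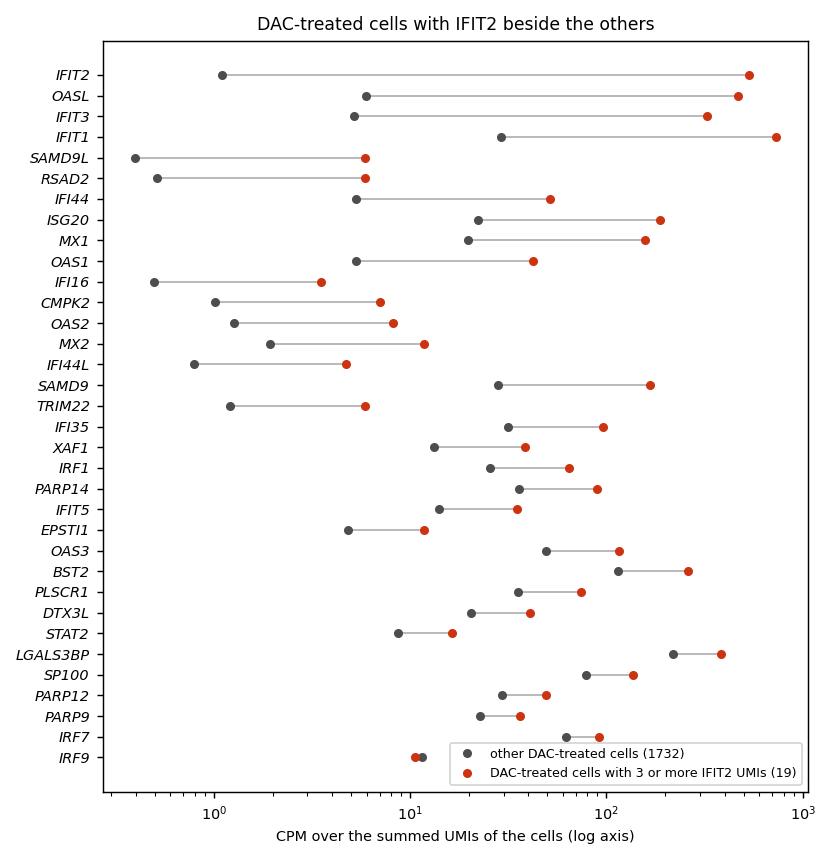
CPM of each of the 34 genes, on a log axis, summed over the 19 DAC-treated cells with 3 *IFIT2* UMIs or more (red) and over the other 1732 DAC-treated cells (gray), ordered by the ratio of the pair. The gap is widest for *IFIT2*, which chose the cells, then for *OASL*, *IFIT3*, and *IFIT1*, and *IRF9* is the only gene with the red point on the left.

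Of a list of 53 other genes of the pathway, 52 were found, and 43 had 30 UMIs or more. The ratio was 2 or more for 15 of the 43 and 0.5 or less for 1, beside 21.1% and 7.58% of all genes. Interferon ligands were nearly absent: *IFNL1* had 0 UMIs in mock-treated and 14 in DAC-treated cells, 4 of them in the 19 cells just described, *IFNE* had 19 and 75 UMIs (ratio 3.34), *IFNL2* and *IFNA1* had 1 UMI each, in DAC-treated cells, and *IFNB1*, *IFNK*, *IFNG*, *IFNA2*, and *IFNL3* had none in either. Receptor subunits lay between ratios of 0.722 (*IFNGR1*) and 1.36 (*IFNLR1*). The RNA sensors *DDX58* (RIG-I), *IFIH1* (MDA5), and *DHX58* had ratios of 4.18, 4.30, and 3.71, while *TMEM173*, encoding the DNA sensing adaptor STING, went from 653 to 331 UMIs (ratio 0.428), the only one at 0.5 or less. Among genes of ISG15 conjugation, ratios were 5.90 for *ISG15*, 3.36 for *USP18*, 2.97 for *HERC5*, and 3.05 for *HERC6*, and *UBA7* had 0 against 38 UMIs, at least 10.7-fold higher when set against 3 counts over the library. *IFI27* (ratio 187), *PSMB8* (22.0), *IFI6* (16.9), *IFITM1* (4.08), and *TAP1* (2.27) were also past 2.

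Among the genes not on the list of 34, the 10 with the highest Pearson r with the sum of the 34 over 1293 DAC-treated cells were *IFI6* (0.65), *ISG15* (0.61), *IFI27* (0.47), *IFIH1* and *B2M* (both 0.45), *IFITM3* (0.44), *HLA-B*, *DDX58*, and *PSMB9* (all 0.43), and *HLA-C* (0.42). All of them except *HLA-C*, *HLA-B*, *B2M*, *IFITM3*, and *PSMB9* had a ratio of 2 or more between the conditions. The ratios of those 5 ran from 1.11 for *IFITM3* to 1.87 for *PSMB9*. Like *LGALS3BP* and *PLSCR1* on the list, these genes followed the others between DAC-treated cells with ratios below 2 between the libraries.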

How the data were processed

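Single-cell RNA sequencing of mock- and DAC-treated HCT116 cells was used, with 1 library per condition. Per the methods, the authors mapped reads to hg38 using Cell Ranger, and the tables they deposited hold unnormalized UMI counts, 1 row for each gene and 1 column for each cell. All deposited cells were used, and doublets, which carry no distinct genes in a single cell line, were not called. The 34 genes and the pathway and marker lists were chosen with earlier results of these data known. UMIs were summed per library and scaled to its total. Ratios have exact conditional binomial intervals, shares Clopper-Pearson intervals, and a count of 0 was set against 3 counts. Each cell was thinned to 10000 UMIs without replacement with a fixed seed. Named genes were all 34, the 10 other genes with the highest correlation with their sum, and pathway genes with a ratio of 2 or more either way, except for an item that is not reported here. *IFIT2*, *IFIT3*, *STAT2*, *IRF9*, *TRIM22*, and *SP100* overlap another annotated gene on their strand, which could take some of their reads. Coordinates are from GENCODE release 44 and promoters from RefSeq. Python 3.11.15 with numpy 2.4.6, scipy 1.17.1, pandas 2.3.3, and matplotlib 3.10.9 was used, and computations were tested on simulated data, in which 192 of 199 changed genes among 3000 were recovered within 0.5 on the log2 scale. Alternatives covered scaling, filters, depth, the random draw, mitochondrial content, and the cells left out.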

Additional observations from a re-analysis of the deposited data

How the results depend on the processing

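The number of the 34 genes with a ratio of 2 or more stayed between 19 of 27 (100 UMIs or more) and 26 under every alternative at that limit, and was 27 at a ratio of 1.5. The ratio of the mean sum per cell, 2.51, was 2.63 without cells over 20% mitochondrial UMIs, 3.00 without *LGALS3BP* and *BST2*, and 2.37 without cells with 3 *IFIT2* UMIs or more. The 25.8% of DAC-treated cells past the mock-treated 99th percentile were 20.7% at 5000 and 34.2% at 20000 UMIs per cell, 30.5% with another draw, and 34.5% in cells low in S and G2/M genes. The variance ratio, 3.84, was 2.87 at 5000 and 4.53 at 20000 UMIs, 4.34 without cells over 20% mitochondrial UMIs, 3.30 without the *IFIT2* cells, and 3.09 in cells low in S and G2/M genes, and stayed between 1.25 and 1.43 in mock-treated cells. The mean r, 0.104, was 0.0801 at 5000 and 0.146 at 20000 UMIs, 0.123 without cells over 20% mitochondrial UMIs, 0.0883 without the *IFIT2* cells, 0.0771 in cells low in S and G2/M genes, and 0.0902 as Spearman correlation. The median log2 ratio was 2.49 without the *IFIT2* cells. The causes were not tested. The restrictions on *IFIT2* and on S and G2/M genes were chosen after seeing the data.

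Of 201 log2 ratios of single genes under 6 alternatives, 2 were below 0, both of *ISG20*: −0.09 with median-of-ratios scaling and −0.08 without cells over 20% mitochondrial UMIs. In all, 70 lay outside the interval of the value reported, among them thinned values of *MX2*, *OAS2*, and *SAMD9L* that are lower bounds, set against 3 counts because no mock-treated UMI was left, and so show no move. *IFI35*, at a ratio just above 2, came below it without cells over 20% mitochondrial UMIs (log2 0.89), thinned (0.96), and without the *IFIT2* cells (0.98). Thinned, *RSAD2* (0.95) came below 2 and the bound of *SAMD9L* was 0.84. *PARP14* rose past 2 when thinned (1.16) and in cells low in S and G2/M genes (1.58), as did *SP100* in the latter (1.09) and as a mean of CPM per cell (1.00). *IFIT2* went from 2.99 to 1.73 without cells over 20% mitochondrial UMIs and to 1.25 in cells low in S and G2/M genes, *IFIT3* from 3.38 to 2.27 as a mean of CPM per cell, and *IFI44* from 4.63 to 5.87 without cells over 20% mitochondrial UMIs. In cells low in S and G2/M genes, *IFI44* was at 3.37 and *MX1* went from 6.27 to 5.24. No paired analysis was possible because each condition had 1 library and the labels give no replicate numbers. For the 13 genes with fewer than 30 UMIs in mock-treated cells, the mock-treated counts limit the precision of the ratio.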

Other observations

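In the 19 DAC-treated cells with 3 *IFIT2* UMIs or more, genes other than the 34 were compared with the other 1732 DAC-treated cells, among genes detected in at least 10 of the 19, a choice made after the data were seen and one that favors genes high in the 19 cells, so the values are a description. *HERC5*, the ligase for ISG15, was at 374 against 27.5 CPM. The RNA sensors *DDX58* and *IFIH1* were 9.63 and 6.53 times higher, and *ZC3HAV1*, which encodes an antiviral zinc finger protein, was 6.19 times higher. *BIRC3*, an NF-κB target, was 5.63 times higher, and *PLAUR*, the urokinase receptor, was 4.91 times higher.

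*TRIM38* and *UBE2L6*, genes with immune roles, were higher in the DAC-treated cells with more UMIs of the 34 genes, with 86 against 17 and 107 against 23 UMIs in the highest and lowest of 4 groups of cells ranked by that sum, and were lower in the DAC-treated than in the mock-treated library, with ratios of 0.345 and 0.790.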
